A study of Arabidopsis thaliana with 6 samples.

Results

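The signal ranking of whole TaVAPOE seedlings of Arabidopsis thaliana was described from 2 of the 6 arrays of the study. TaVAPOE plants are wild-type plants that carry an overexpressed TaVAP. They were 5 days old, grown on OS medium in a light-dark cycle and untreated. The study also holds wild-type plants and an atvap mutant of the same age, grown and handled in the same way, which were not compared here. Per the labels each array holds RNA of a separate biological replicate. The labels give neither the promoter of the transgene, nor the accession of the plants, nor how many seedlings were pooled. VAP proteins are membrane anchors of the endoplasmic reticulum that bind partners at contacts with other membranes, and the level of TaVAP itself was not analysed here.

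All 22746 probe sets of the ATH1 array other than the 64 control probe sets were ranked by their mean over both arrays. A probe set is a group of short probes read as 1 value. The values are on a log scale of unstated base, so they are given in log units and as percentiles of the ranking, and no fold is given. Signal depends on how well the probes of a set bind as well as on the transcript, and it is not scaled to transcript length. The ranking is therefore described by classes and by groups of genes, and small gaps between genes have no reading. The brightest class holds the top 5% (1138 probe sets, mean above 6.22), the middle class the 40th to 60th percentile (4549 probe sets, 2.34 to 3.12) and the dimmest class the lowest 20% (4549 probe sets, up to 1.46). The nearest values on either side of the brightest limit were 6.22047 and 6.22049, so the class has no natural edge.

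A gene name was given by the annotation used here to 13513 probe sets, which cover 13356 genes. Where a gene had several probe sets, its brightest one was taken. Only 1535 of these genes (11.5%) have a symbol other than a locus tag, and the others are named by locus, with no role unless RefSeq lists a further name. Many well-known genes are not analysed here because their probe sets are unnamed in this annotation. Of the brightest probe sets 55.4% were unnamed, against 39.4% of the middle class and 27.2% of the dimmest. The brightest named genes are thus a subset of the brightest signals. Of the 25 brightest probe sets 7 have 1 gene, 2 have several genes and 16 are unnamed. The brightest of all is among the unnamed, at 10.61 and 10.72 on the 2 arrays.

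A young seedling in the light turns its seed leaves into green, photosynthetic organs. Chloroplasts take most of their proteins from nuclear genes, and their own small genome supplies core subunits of the photosystems, the cytochrome b6f complex, the ATP synthase and the chloroplast ribosome. Transcripts of both genomes are known to be abundant in green tissue, while genes of seeds, pollen and flowers are mostly quiet there.

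Of the 25 brightest genes 14 have a symbol, and photosynthesis genes of both genomes are among them. The gene with the highest mean was plastid-encoded atpE, the epsilon subunit of the chloroplast ATP synthase, at 10.25 and 10.20 log units on the 2 arrays. Next came atpB, the catalytic beta subunit of the same enzyme, at 9.94 and 9.88. Both lay above the other 23 of the 25 brightest genes on both arrays. Plastid psbM, a small subunit of photosystem II, read 9.70 and 9.26, the largest difference between the arrays among these 25 genes. Plastid ndhI, of the NADH dehydrogenase-like complex, read 8.96 and 8.94, and psaB, a reaction centre protein of photosystem I, read 8.61 and 8.73. The sixth plastid gene among the 25 was rps4, a protein of the small ribosomal subunit, at 8.53 and 8.63.

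Nuclear genes among the 25 brightest included several of the light reactions. LHCB4.1, which encodes the minor antenna protein CP29 of photosystem II, read 9.29 and 9.11. PSAE-1, a photosystem I subunit on the side where ferredoxin docks, read 9.12 and 9.17, and PSAN, another photosystem I subunit, read 8.79 and 8.77. RCA, the activase that keeps the carbon-fixing enzyme Rubisco in its active form, read 8.92 and 9.09. The 4 genes differed between the arrays by less than 0.2 log units each.

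Genes outside photosynthesis were also among the 25 brightest. EXO, or EXORDIUM, known for its part in brassinosteroid-dependent growth, read 8.88 and 9.06. PRXR1, a secreted peroxidase, read 8.78 and 8.91, and LCR69, a small cysteine-rich peptide of the defensin type, read 8.50 and 8.69. CCL read 8.50 and 8.43 and closed the list, with ECS1 just outside it at 8.42 and 8.51. The other 11 genes of the 25 have only a locus tag. The highest of these were AT3G22240 at 9.61 and 9.45 and AT2G25510 at 9.56 and 9.45, and the lowest was AT5G27700 at 8.46 and 8.57.

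The membership of this list was steadier than its order. Of the 25 genes 23 were among the 25 brightest on each array taken alone. Only 3 of the 24 gaps between neighbours in the list exceeded 0.11 log units, the typical standard deviation of a pair of arrays in the brightest class. Most neighbours in the order therefore do not differ beyond their spread.

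Below these 25 the next genes with a symbol mixed photosynthesis with primary metabolism and stress regulation. PSBY, a photosystem II protein, read 8.24 and 8.53, and ATPC1, the gamma subunit of the chloroplast ATP synthase, read 8.07 and 8.19. PSBW, also of photosystem II, read 7.95 and 8.0. The cytosolic glycolytic enzymes GAPC2 (8.19 and 7.99) and TPI (7.91 and 8.18) lay among them. TET8, a tetraspanin of the plasma membrane, read 8.26 and 8.37. STZ, a zinc-finger repressor of stress responses, read 7.90 on both arrays, and DI19, named for its induction by drought, read 7.64 and 7.75.

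**Figure D1:**
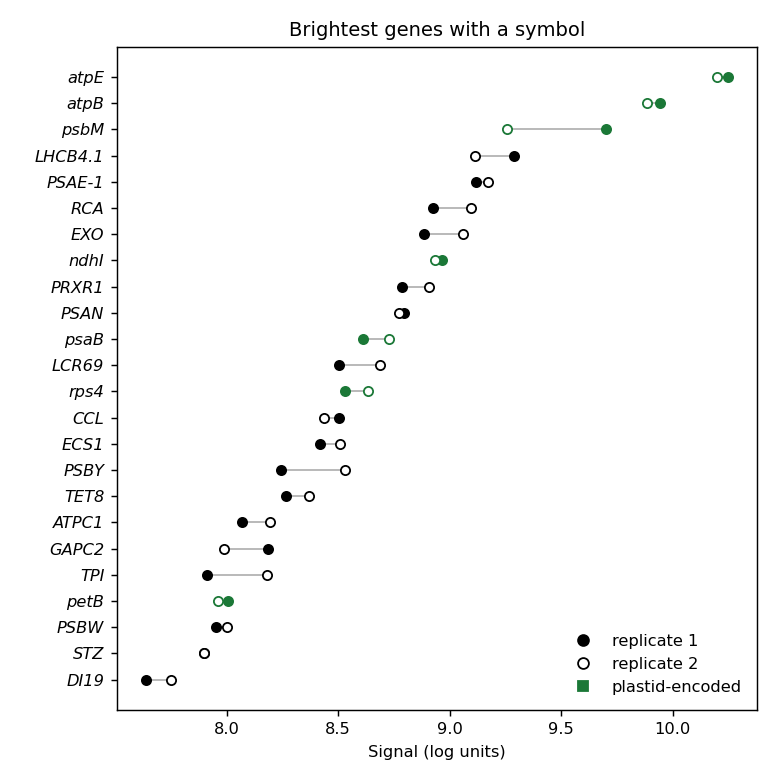
Signal in log units (horizontal axis) of 24 of the 25 brightest genes that have a symbol, on replicate 1 (filled circle) and replicate 2 (open circle), with plastid-encoded genes in green; a grey line joins the 2 arrays of a gene. The pair for psbM lies farthest apart, at 9.70 and 9.26, and atpE and atpB stand above the rest on both arrays.

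Listed nuclear photosynthesis genes sat near the top as a group. On lists of antenna, photosystem and electron transport, Calvin-Benson cycle, chlorophyll synthesis and photorespiration genes, 16 genes could be measured and named. Of these, 13 were in the brightest class, against 3.42% of all genes measured (457 of 13356), and all 16 were above percentile 50. Genes with a symbol were brighter than all genes, with 6.71% in the brightest class (103 of 1535) and a median at percentile 58.2, against percentile 45.0 for all genes. The median of the 16 photosynthesis genes, all of them named, was at percentile 98.7. The rest of each list was not analysed here, so these shares describe the measured members only. Genes of like functions outside the lists lay at various levels: HEMB1 at percentile 96.1, PGRL1B at 55.4 and hemb2 at 12.7.

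The antenna genes differed most within this group. LHCB4.2, a close relative of LHCB4.1 that encodes the same kind of antenna protein, read 7.49 and 7.61, and LHCB4.3, another member, read 5.14 and 5.26. The 3 genes kept the same order on both arrays. Probe sets of the same gene differed by a median of 1.28 log units over 146 genes, with a 90th percentile of 3.15. The gaps of LHCB4.2 to LHCB4.1 and to LHCB4.3 were above this median and below this 90th percentile, so they may lie within probe effects. The gap of LHCB4.1 to LHCB4.3 was above the 90th percentile, and its cause was not tested. In the Calvin-Benson cycle PRK, which makes the carbon dioxide acceptor, read 7.36 and 7.22, and SBPASE, an enzyme of acceptor regeneration, read 7.08 and 7.11. HPR, the peroxisomal hydroxypyruvate reductase of photorespiration, read 6.93 and 6.88.

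Of 4 genes of chlorophyll synthesis 2 were in the brightest class. PORB, the enzyme of the light-requiring step, read 7.66 and 7.47, and CHLM, which methylates magnesium protoporphyrin, read 6.85 and 7.0. GSA1, which acts early in the pathway, read 5.32 and 5.35, and CHLI2, a magnesium chelatase subunit, read 4.82 and 5.12. GSA1 and CHLI2 were thus outside the brightest class, at percentiles 89.5 and 87.3.

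**Figure D2:**
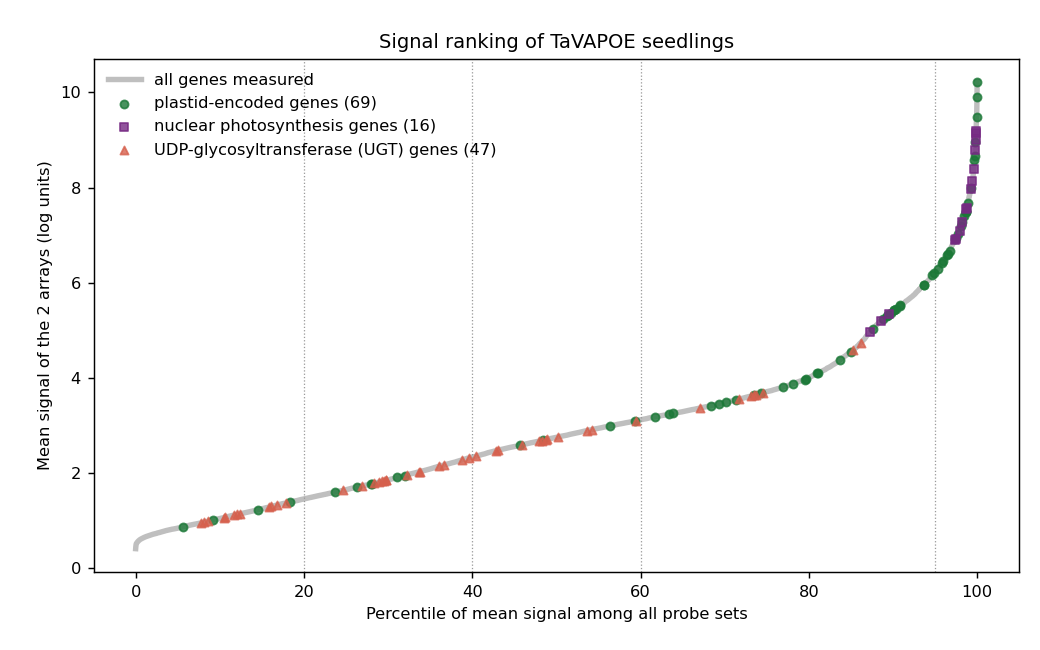
Mean signal of the 2 TaVAPOE arrays in log units (vertical axis) against the percentile of that mean among all 22746 probe sets (horizontal axis). The grey line holds all 13356 genes, symbols mark the plastid-encoded, nuclear photosynthesis and UDP-glycosyltransferase genes, and dotted lines stand at percentiles 20, 40, 60 and 95. The 16 listed nuclear photosynthesis genes lie at percentile 87.3 or above, and plastid-encoded genes spread over the whole range. Of the 47 UDP-glycosyltransferase genes 35 lie below percentile 50, as do 7344 of all 13356 genes and 627 of the 1535 genes with a symbol.

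Plastid-encoded genes were bright on the whole and spread very widely. Of 69 measured, 23 were in the brightest class (against the 3.42% of all genes) and 57 above percentile 50, with a median of 5.32 log units at percentile 89.4. In the dimmest class were 4 of them, psaC, rps14, atpI and ndhF, against 23.1% of all genes. Genes whose proteins share a complex often lay far apart.

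The ATP synthase genes ran from atpE and atpB at the top of the ranking to atpI, a membrane subunit, at 1.11 and 0.91 log units. In photosystem I, psaB read 8.61 and 8.73, while psaA, which encodes its reaction centre partner, read 3.58 and 3.40. Photosystem II had 15 measured genes with a median at percentile 89.4. Its psbA, which encodes the reaction centre protein D1, read 5.50 and 5.14. In the cytochrome b6f complex petB read 8.01 and 7.96 and petA 7.03 and 7.03, whereas petD read 2.63 and 2.55. The large-subunit gene of Rubisco, rbcL, read 6.12 and 6.28, at percentile 94.9 and so just outside the brightest class.

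Genes of the plastid gene-expression machinery varied less in some complexes. The 7 large-subunit ribosomal genes had a median at percentile 95.3, with rpl22 at 7.09 and 6.77 on the bright side and rpl20 at 3.08 and 3.29 as the lowest. Of the 4 genes of the plastid RNA polymerase, rpoA read 7.47 and 7.07. The beta subunit gene rpoB read 1.29 and 2.26, the largest difference between arrays among all plastid genes.

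**Figure D3:**
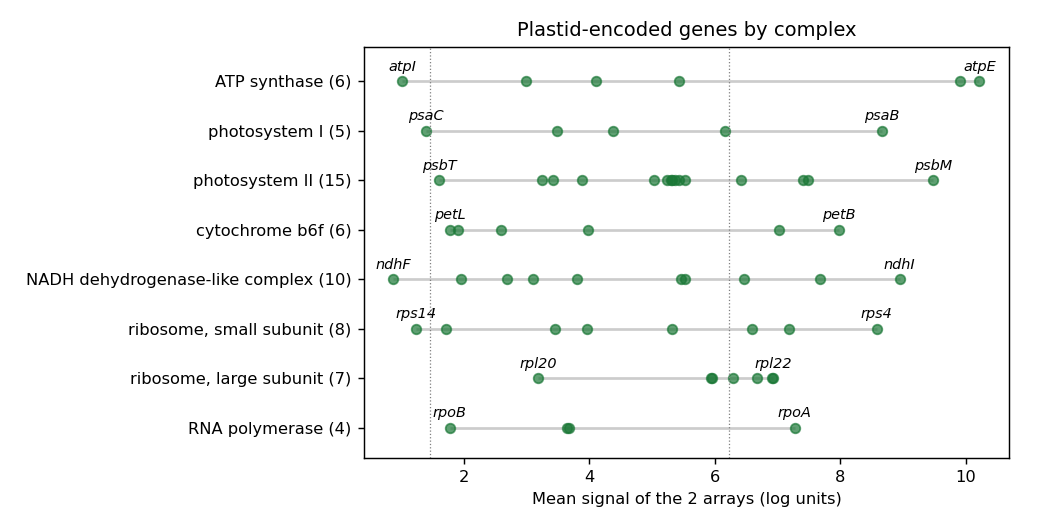
Mean signal of the 2 arrays in log units (horizontal axis) for plastid-encoded genes, 1 row per complex with its number of measured genes; the lowest and highest gene of each row are named, and dotted lines mark the limits of the dimmest class (1.46) and the brightest class (6.22). The large ribosomal subunit is the narrowest of the rows with 5 or more genes, and ATP synthase spans from 1.01 for atpI to 10.22 for atpE.

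Several plastid genes are known to be transcribed together, and their probe sets were compared within 8 such transcription units, a grouping made after the values had been seen. The 31 genes of these units gave a median range of 2.3 log units between the brightest and dimmest gene of a unit. In all 8 units this range exceeded the largest difference between arrays in the unit, and in 3 units it was over 3 log units. The widest was the unit of psaA, psaB and rps14, from 1.23 (rps14) to 8.67 (psaB). In the unit psbB, psbT, psbH, petB and petD the means ran from 1.60 for psbT to 7.98 for petB. The pair atpB and atpE was the closest, 0.31 log units apart, and the cluster of 6 ribosomal protein genes and rpoA ranged over 1.32 log units. Signals of probe sets for genes that share a primary transcript thus differed by more than the replicate error. Probe sets of 1 gene also did so, with a median gap of 1.28 log units, a 90th percentile of 3.15 and a largest gap of 5.21. Only the 3 widest units had a range above this 90th percentile. A range over several genes also tends to be wider than a gap between 2 probe sets. The part of probe effects in these ranges was not tested.

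Housekeeping genes of the cytoskeleton were spread from bright to dim. Of 9 measured actin and tubulin genes, 8 were above percentile 50, as were 6012 of all 13356 genes, and 1 was in the brightest class, against 3.42% of all genes. TUA6, an alpha-tubulin, read 7.40 and 7.62, and the beta-tubulins TUB5, TUB6, TUB9 and TUB7 had means at percentiles 94.7, 94.5, 94.5 and 92.9. TUB1 lay lower at 4.05 and 4.38, and TUA1 read 3.73 and 3.85. ACT11 read 3.75 and 3.54, and ACT12, an actin known from pollen, read 1.0 and 1.62 and was in the dimmest class.

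Genes often used as references for quantitative PCR were not equally bright. GAPC2 lay at percentile 99.4. AT2G28390, also called MON1, a membrane-trafficking gene, read 3.65 and 3.34. EIF4A-2, an RNA helicase of translation initiation, read 6.26 and 6.17, just below the brightest class.

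Tissue markers were set against the label of whole young seedlings. The green lists above were bright. In the seed list the 2 named members were both in the dimmest class: OLEO3, an oil-body oleosin, read 1.5 and 1.16, and PAP85, a storage protein, read 1.08 and 1.2. Of the flower and pollen list only MGH3, a histone of pollen sperm cells, was named, at 1.67 and 2.18.

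Mean signals of the root markers lay between those of the green markers and the 2 named seed markers. PYK10, the beta-glucosidase of root ER bodies, read 3.73 and 3.99 at percentile 77.8, and NAI2, needed for those bodies, read 2.65 and 3.14. The root-hair expansins EXPA7 (1.69 and 2.42) and EXPA18 (2.12 and 2.14) were below percentile 50. CLV3, a peptide of the shoot stem-cell niche, read 1.4 and 1.59. The mean signals of the 4 root markers ranged from 2.05 to 3.86 log units, and none was in the brightest class. The higher seed marker, OLEO3, had a mean of 1.33. The lowest root marker exceeded it by less than 1.28 log units, the median gap between probe sets of 1 gene, so this order is uncertain. In whole seedlings fewer cells of a type and less RNA per cell cannot be told apart. No member of the aquaporin, cell cycle and photoreceptor lists was analysed here.

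Regulators were found at every level. Among the 103 genes with a symbol in the brightest class, the transcription factors WRKY53 (6.62 and 6.63), a regulator of leaf ageing and defence, and BZIP53 (7.16 and 6.76) lay beside photosynthesis genes. BZIP60, a factor of the endoplasmic reticulum stress response, read 6.96 and 6.69, and ORA47, of the AP2/ERF family, read 6.92 and 7.01. The cold-responsive genes COR47, which encodes a dehydrin, and COR15B, which encodes a chloroplast protein of freezing tolerance, were in this class too, at 6.88 and 6.96 and at 6.57 and 6.56. FER, or FERONIA, a receptor kinase of cell growth, read 6.44 and 6.56, and RALFL33, a peptide of the family that FERONIA is known to bind, read 6.95 and 7.07. These examples were chosen after their values were seen, and no other genotype was set beside them here.

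Gene groups with 5 or more nuclear members were formed from symbols that share their letters, of which 41 groups are described. Shared letters do not always mean 1 family: GH holds auxin-conjugating GH3 and cell-wall GH9 genes, PDF holds plant defensins and peptide deformylases, and CYP holds a cyclophilin beside the cytochromes P450. All their members have a symbol, so their shares are best read against all genes with a symbol, of which 6.71% were in the brightest class, 20.8% in the middle class and 13.4% in the dimmest, with a median at percentile 58.2. In 16 groups the median was above percentile 50. The 5 beta-tubulins (TUB) had a median at percentile 94.5 and the 8 aldehyde dehydrogenases (ALDH) at 89.9. BHLH came next, with 5 transcription factors and a median at percentile 80.9, from bHLH115 at 5.23 and 5.16 to BHLH101 in the dimmest class. This group holds only genes whose symbol spells bHLH. Factors of the family with other symbols, such as MYC3 and MYC4, are not in it, so its median is not that of the family.

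Groups of RNA handling and membrane traffic followed. The 6 LSM genes, whose proteins form rings on RNA in splicing and decay, had a median at percentile 75.0. The 8 autophagy genes (ATG) stood at 71.7, the 10 VPS genes of endosomal sorting at 71.4 and the 8 SEC genes of secretion at 68.6. Even so, single members could be dim. VPS2.1 read 6.51 and 6.48, while VPS24.2 read 1.11 and 0.78.

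At the lower end lay some groups of regulators and transporters. The 7 CHX genes, which are cation/proton exchangers known mainly from pollen, had a median at percentile 18.1. Of these, 4 were in the dimmest class (57.1%, against 13.4% of genes with a symbol). The 7 IAA genes, repressors of auxin response, had a median at percentile 21.2, although IAA18 read 4.39 and 4.44. The 5 response regulators of cytokinin signalling (RR) had a median at 23.6. None of these 3 groups had a member in the brightest class. As 6.71% of genes with a symbol were in that class, none in groups of 5 to 7 genes is near that share.

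Large enzyme families covered nearly the whole range. The 47 UDP-glycosyltransferases (UGT), which attach sugars to hormones and secondary metabolites, had a median at percentile 36, with 12 in the middle class (25.5%, against 20% of all genes), 12 in the dimmest (25.5%, against 23.1%) and none in the brightest (against 3.42%). These shares lie near those of all genes, while the dimmest share of genes with a symbol was 13.4%. UGT78D1, a flavonol rhamnosyltransferase, was the highest at 4.38 and 5.09, and UGT73C2 the lowest at 1.0 and 0.91. The 26 CYP genes had a median at percentile 33.6. The 20 beta-glucosidases (BGLU) had a median at percentile 25.4. BGLU44 alone of these was in the brightest class, at 6.62 and 6.45, which is 5% of the group, against 6.71% of genes with a symbol. In the dimmest class were 8 (40%, against 13.4% of genes with a symbol and 23.1% of all genes).

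Some otherwise dim groups held a bright member. The 15 tetraspanins (TET) had a median at percentile 34.6, yet TET8 read above 8 on both arrays and TET4 read 0.75 and 0.74. Of the 11 tau-class glutathione transferases (GSTU), with a median at percentile 24.9, GSTU20 read 6.62 and 6.73 and GSTU15 read 0.84 and 0.59. The 8 cysteine-rich LCR peptides had a median at percentile 26.4, with LCR69 among the 25 brightest genes and LCR67 at 0.94 and 1.54. Of the 10 RALF-like peptides (RALFL), 2 were in the brightest class and 4 in the dimmest (40%, against 13.4% of genes with a symbol). RALFL25 read 0.75 and 0.68. Shares in the brightest class were 6.67% for TET, 9.09% for GSTU, 12.5% for LCR and 20% for RALFL. Among genes with a symbol the share was 6.71%. Each group share rests on 1 or 2 genes, so it is not read as a trait of the group.

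**Figure D4:**
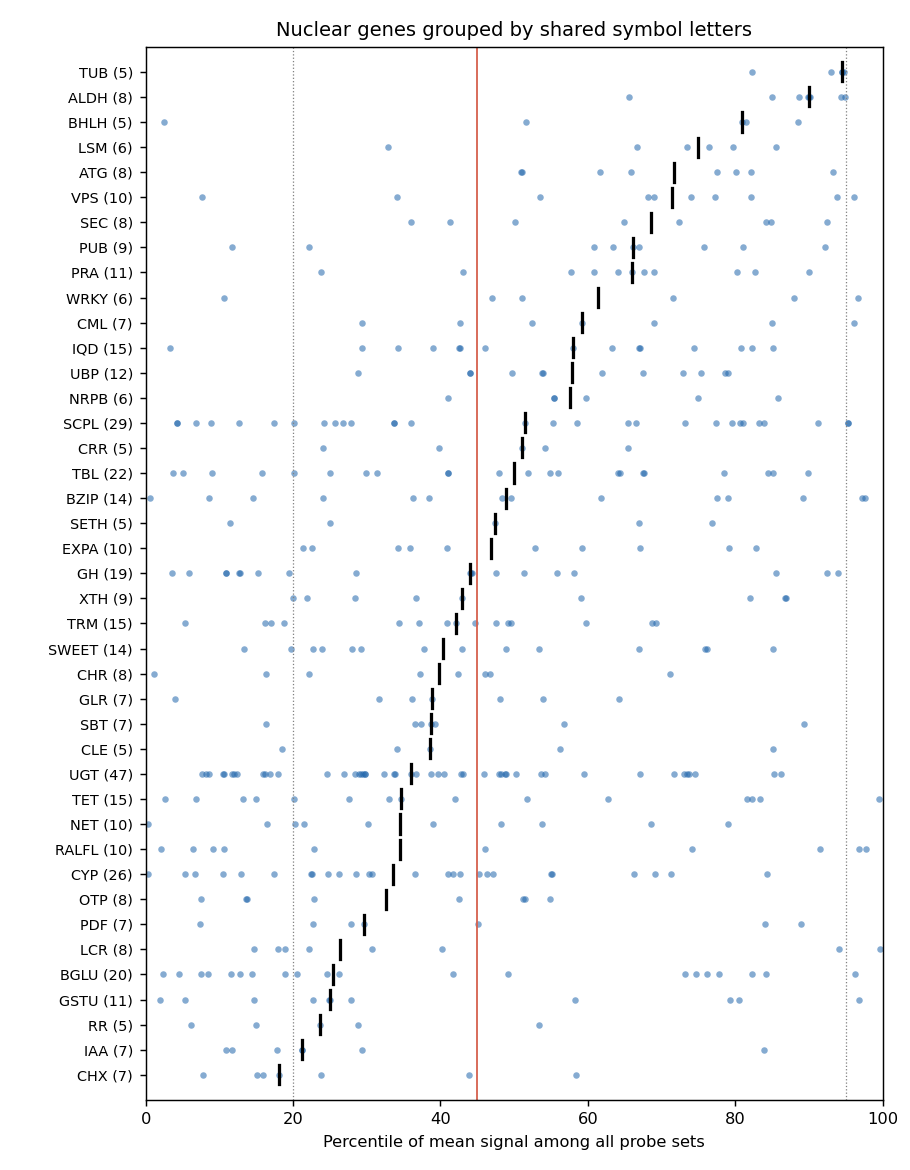
Percentile of the mean signal (horizontal axis) of each member (point) of the 41 groups of nuclear genes whose symbols share their letters, with the number of members in brackets and the group median as a black bar; dotted lines stand at percentiles 20 and 95 and the red line at 45.0, the median of all genes; for genes with a symbol it is 58.2. Medians run from 18.1 for CHX to 94.5 for TUB, and TET, RALFL, LCR, GSTU and BGLU each hold members at both ends.

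Cell-wall and membrane families lay around the middle. The 22 TBL genes, whose members acetylate wall polysaccharides, had a median at percentile 49.9, from TBL36 at 5.40 and 5.36 to TBL30 at 0.90 and 0.69. The 18 expansins, which loosen the wall, had a median at percentile 56.0. EXLA1 was the brightest of them at 6.43 and 6.4, and EXPB5 the lowest at 1.37 and 1.31. The 14 SWEET sugar transporters had a median at percentile 40.4. SWEET11, a sucrose exporter of leaf phloem cells, read 4.51 and 4.63, and SWEET8, known from pollen development, read 1.36 and 1.01.

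The middle class held 320 genes with a symbol, 20.8% of them and so about the 20% found for all genes. Several groups had a larger share of members there than the 20% of all genes: 4 of the 6 RNA polymerase II subunits (NRPB), 5 of the 12 ubiquitin-specific proteases (UBP), 4 of the 8 OTP genes of organelle RNA processing and 7 of the 15 TRM genes. These groups are small and were not tested. TRZ3, a transfer RNA processing enzyme, read 2.83 and 2.67 and lay nearest the median of all probe sets, 2.75. BPC1, a GAGA-binding factor, read 2.71 and 2.82, and TRY, a repressor of leaf-hair fate, read 2.81 and 2.67. MED9, a Mediator subunit, read 2.44 and 3.07, which is percentile 41.7 on one array and 57.9 on the other.

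Some genes of cell division also lay in the middle class. HBT, a subunit of the anaphase-promoting complex, read 2.71 and 3.28, BUBR1, of the spindle checkpoint, read 3.31 and 2.80, and ICU2, the catalytic subunit of DNA polymerase alpha, read 2.55 and 2.55. They were picked after their values were seen, and others lay lower, such as CDC27a, a relative of HBT, in the dimmest class. Of 6 histone genes 5 were above percentile 50, as were 908 of the 1535 genes with a symbol. With 6 genes this count is not read as a trait of histones. The histone genes ran from HTB4, a histone H2B, at 6.24 and 6.30 to HIS1-3, a linker histone known from drought, at 2.25 and 2.2.

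The dimmest class held 206 genes with a symbol. Some are known from reproduction: EC1.2, a peptide secreted by the egg cell, read 0.66 and 1.13, and SDS, a cyclin-like protein of meiosis, read 0.84 and 0.95. LEA18, a late embryogenesis abundant protein, read 0.82 and 1.09. Others are known for induction by shortage, such as NRT2.5, a nitrate transporter of starved plants, at 1.22 and 0.74 and BHLH101, a factor of iron deficiency, at 0.74 on both arrays. These too were picked after their values were seen. Others of these kinds lay in the middle class, such as LEA4-5 at 2.71 and 2.99 and ATSPO11-1, of meiosis, at 2.67 and 2.49.

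The lowest gene with a symbol was CYP71B31, a cytochrome P450, at 0.59 and 0.54. MYC4, a jasmonate-signalling factor, read 0.76 and 0.53, while its relative MYC3 read 2.58 and 2.98. NET3B, of a family of actin-binding proteins, read 0.79 and 0.37. The other 5 of the 8 lowest were M17, bZIP48, CHR40, DNF and CIL. At this end the order was loose: CHR40, a chromatin remodeller, stood at percentile 6.81 on replicate 1 and 0.0747 on replicate 2. No detection calls were used, so a dim reading is not a statement that a transcript was absent.

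Genes that RefSeq classes as pseudogenes give a reference for dim signal. Of 923 measured, 605 were in the dimmest class (65.6%, against 23.1% of all genes), 25 above percentile 50 and none in the brightest class. Their median was 1.15 log units, at percentile 12.6, against percentile 48.5 for the 12293 protein-coding genes. The 66 pseudogenes annotated as transcribed had a median at percentile 19.6, with 33 of them in the dimmest class. The CHX and IAA medians thus lay above the pseudogene median and below that of protein-coding genes.

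The VAP27 genes, the VAP family of plants, were neither bright nor uniformly dim. Of 10 loci listed, 7 were measured, with a median at percentile 68.4 and none in the brightest class. The highest was AT4G21450 at 4.43 and 4.76. MAMI, the only one with a symbol, read 3.47 and 3.74. AT2G23830 was in the dimmest class, at 0.48 and 0.74, and the other 4 lay between percentiles 44.2 and 71.0.

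The 2 arrays gave nearly the same ranking at the bright end and a looser one below. Over all probe sets Pearson's r was 0.979 and Spearman's rho 0.965, a description across probe sets that share their arrays. The median absolute difference was 0.19 log units, 87.8% of probe sets lay within 0.5, and 339 (1.49%) differed by more than 1. The medians of both arrays were 2.76, and their highest values were 10.6 and 10.7.

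Agreement changed along the ranking. In the brightest class the median absolute difference was 0.10 log units, 99.6% lay within 0.5, and no probe set differed by more than 1. The least agreement was in the band from the 20th to the 30th percentile, where 73.9% lay within 0.5 and 139 probe sets differed by more than 1. Below the 10th percentile the arrays agreed better again in log units, with 93.9% within 0.5. Means there ran only from 0.41 to 1.04, near the lowest values of the arrays (0.317 and 0.229), which limits how far the arrays can differ. Ranks in this band still shifted by a median of 3.56 percentiles. Ranks shifted by a median of 0.198 percentiles between the arrays in the brightest class, 5.42 in the middle class and 4.34 in the dimmest. Accordingly 94.5% of the brightest class of one array was also in that of the other, 67.1% of the middle class and 80.0% of the dimmest.

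**Figure D5:**
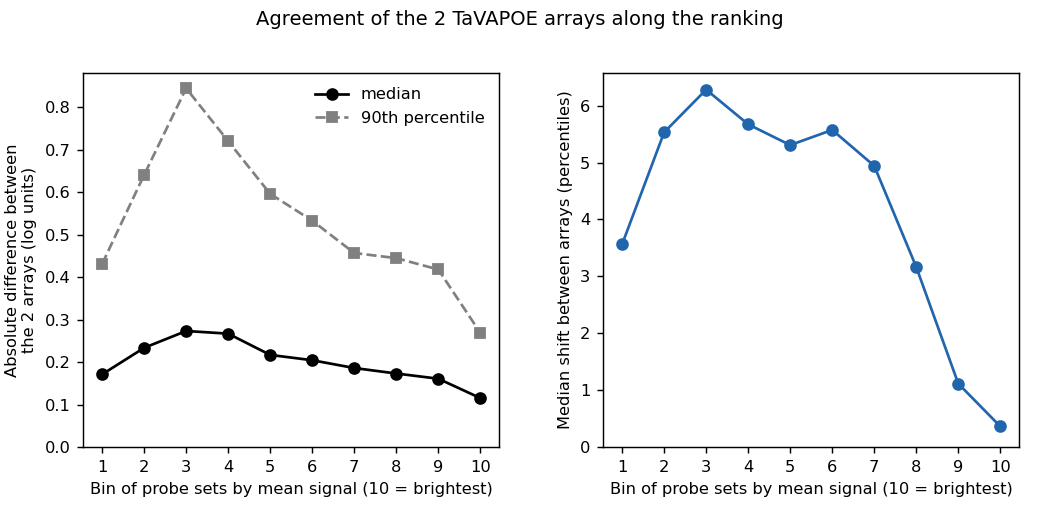
Difference between the 2 TaVAPOE arrays for 10 equal bins of the 22746 probe sets by mean signal (1 dimmest, 10 brightest). The left panel gives the median and 90th percentile of the absolute difference in log units, and the right panel the median shift in percentiles; both differences in log units peak in bin 3, and the shift falls to 0.365 percentiles in bin 10.

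The 8 genes above the median with the largest differences between the arrays all lacked a symbol. AT1G71170 read 2.47 and 3.81, AT4G08410 read 4.37 and 3.10, and AT1G36390 read 2.91 and 4.06. The probe set of AT4G08410 is of a class that may bind several transcripts. Of the 8 largest differences 6 were higher on replicate 2, AT4G20760 being the brightest of them at 3.91 and 4.93. None of the 8 was in the brightest class.

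Probe sets of the same gene show how far a place in the ranking depends on the probes. For 146 genes with several probe sets, 140 of them with 2, the means differed by a median of 1.28 log units, and in 88 genes by more than 1. The median difference between arrays in the same probe sets was 0.25, and in 122 genes the gap between probe sets exceeded the difference between arrays. SDH2-1, an iron-sulphur subunit of respiratory complex II, read a mean of 5.59 in one probe set and 1.02 in the other. The largest gap was 5.21, for AT4G16980. In 1 gene one probe set was in the brightest class and another below percentile 50. A middle or dim place of a gene with 1 probe set is thus less certain than the replicate error alone would show.

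Control probe sets on the same arrays give a scale for the signal. The hybridisation controls, added at rising amounts, stood in the order bioB (1.11 to 3.49), bioC (5.36 to 6.79), bioD (6.82 to 8.38) and cre (9.0 to 10.3), and did not overlap. The median of bioB was at percentile 31.8 of the ranking and that of cre above percentile 99.9. Plant actin controls read 7.2 to 8.47 at the 3′ end of the transcript and 3.64 to 6.08 at the 5′ end. GAPDH read 6.59 to 7.46 and 5.38 to 7.56, and ubiquitin read 7.93 to 8.14 and 6.89 to 7.72. The actin and ubiquitin controls were brighter at the 3′ end on both arrays, while the GAPDH ranges overlapped. The part of this in the ranking was not tested.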

How the data were processed

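Total RNA of whole seedlings was hybridised to Affymetrix arrays, with 2 replicates of each genotype that the labels call biological. The deposited values are probe-set scores made by the authors. They lie on a log scale, and its base, the summary of probes and the scaling between arrays are not stated in any source used. Agilent Feature Extraction stands in the submitters' processing notes, with no version, and is not software for this kind of array. Scores were used as deposited, and 2 arrays limit the precision of every value. Exact values recur: 1648 and 1571 probe sets hold a value shared with another, up to 85 at one value.

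Python 3.11.15 with pandas 2.3.3, numpy 2.4.6 and scipy 1.17.1 computed means, percentiles and agreement, and the code was checked on simulated data. Probe sets were named by the platform annotation, joined by Entrez identifier to RefSeq genes of TAIR10.1 (13436 of 13513 probe sets with 1 gene matched, 503 had several genes and 8730 were unnamed). The files name no genome build, so no coordinates are given, and no sequences were used here.

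No test was run, since there is 1 group and no contrast. Named genes were the 25 brightest, the 8 with a symbol nearest the median, the 8 lowest with a symbol, the 8 above the median with the largest difference between arrays, and up to 2 of the brightest and dimmest members of each list or group. The brightest 25 with a symbol, and further genes said to be picked after their values were seen, were added. Of 281 loci on 17 lists 47 were measured, of which 8 with neither a symbol nor a further RefSeq name were left out. Some gene groups and single genes are not reported here. The members and lists were chosen with earlier results of these data known.

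Alternatives were the lower of both arrays, mean ranks, quantile normalization, median centring, each array alone, probe sets of 1 transcript only, means over the probe sets of a gene, a wider brightest class, and leaving out the dimmest probe sets.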

Additional observations from a re-analysis of the deposited data

How the results depend on the processing

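Taking the brightest 10% in place of the top 5% moved the number of genes with a symbol in the brightest class from 103 to 202. With this wider class the count of plastid-encoded genes in it went from 23 to 32, and that of nuclear photosynthesis genes was 13 in both. The other main counts and shares stayed within 1.5 times of the reported ones under the alternatives run, 59 values in all. Of the percentiles of single genes and groups, 777 moved by no more than the standard deviation of their percentile between the arrays and 153 moved further. With only 2 arrays, leaving 1 out or taking the lower one tends to move a gene by less than this standard deviation by construction. The 777 are therefore no measure of robustness. With 1 array left out, with the lower of both arrays, mean ranks, quantile normalization or only probe sets of 1 transcript, between 1061 and 1137 of the 1138 brightest probe sets stayed in their class, 3780 to 4523 of the 4549 middle ones and 4077 to 4539 of the 4549 dimmest. The median percentile of 6 groups crossed 50: Root (50.8), EXPA (52.2), BZIP (53.6), CRR (48.3) and SETH (50.5) with 1 array left out, and TBL with mean ranks, so the count of 16 groups with a median above 50 is approximate. The share of probe sets within 0.5 log units was 88.2% after quantile normalization, and the range between probe sets of 1 gene was 1.04 log units without the dimmest probe sets. The causes were not tested. No paired analysis was possible because only 1 group was described. The planned description of sequence features by brightness class was not run, as no sequences were used. The unstated log base, the probe effects and the unnamed probe sets limit what a place in the ranking says about transcript amounts.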
